A study of Homo sapiens with 14 samples.

Results

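The genes described here are 9 immediate early genes (FOS, FOSB, JUN, JUNB, JUND, EGR1, IER2, MAFF and ZFP36) and NR4A1, 10 genes of the 19775 that the array names. Every probe set carrying only 1 of these symbols was taken, which gave 21 of 54675 probe sets, and each is described on each of 14 arrays. MM1S is an established human multiple myeloma cell line that responds to glucocorticoids. The arrays form 7 groups of 2 biological replicates, all of the same line and medium. One group was left untreated. The others were exposed for 6 h to 1 nM salmeterol, to 12.5 nM CGS-21680, to dexamethasone alone (25 nM in one group, 2 µM in another), or to either agonist, at the same dose, together with 25 nM dexamethasone. Salmeterol activates beta-2 adrenergic receptors, CGS-21680 activates adenosine 2A receptors, and both receptors couple to cyclic AMP production. Dexamethasone is a synthetic glucocorticoid. The title of the series asks how the agonists act in combination with dexamethasone. The labels name no vehicle, and every comparison is against untreated cells or another treated group.

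Immediate early genes are switched on within minutes of a stimulus without new protein synthesis, through serum response factor, its ETS partners and CREB at their promoters, and most of their messenger RNAs are short-lived. FOS and JUN family proteins pair through leucine zippers to form the AP-1 transcription factors, and EGR1 is a zinc finger transcription factor. NR4A1 (NUR77) is an orphan nuclear receptor induced by cyclic AMP in many cells, and ZFP36 encodes tristetraprolin, a protein that binds AU-rich elements and sends the messenger RNAs that carry them to decay. A sample taken at 6 h comes well after the brief peak of a typical immediate early response.

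Only 6 of the 10 genes, JUN, JUNB, JUND, MAFF, NR4A1 and ZFP36, had a probe set with a log2 level of at least 4 on at least 2 arrays, the filter for testing. FOS, FOSB, EGR1 and IER2 did not, and were described but not tested. Of the 21 probe sets 13 passed the filter, and the one with the highest mean stood for its gene among the 9301 genes tested. Over 18 comparisons, ZFP36 passed the test (limma, Benjamini-Hochberg adjusted p under 0.05 over all 9301 genes) in 8, NR4A1 in 7, MAFF in 3, JUN in 2, and JUNB and JUND in 0. Thus 4 of the 6 tested passed at least once, and 41.2% of all tested genes did. "Rose" and "fell" are used below only of a difference that passed. The spread of the 7 group means put ZFP36 (1.85 in log2 from lowest to highest) at the percentile of 95.5 among the tested genes and MAFF (1.84) at 95.4. NR4A1 (0.86) stood at 74.3, JUN (0.50) at 43.8, JUND (0.43) at 35.3 and JUNB (0.21) at 9.48, with a median spread of 0.56 over all tested genes.

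The replicates of a group correlated at 0.9868 to 0.9919 across genes. The median log2 level of the tested genes ran from 7.44 to 7.63 over the arrays, with the salmeterol pair lowest at 7.45 and 7.44. The GAPDH controls, a measure of RNA integrity, read 0.74 to 1.31 higher in log2 at the 3' end than at the 5' end. The ACTB controls, read in the same way, gave 1.25 to 2.23, and both of these limits came from the CGS-21680 pair. The part of RNA integrity in the levels of that pair was not tested. Of 10 plasma cell markers, 9 were measured above the filter and CD27 was not. The T cell markers reached at most 3.08 in log2 and the myeloid markers 2.38. Of the stromal markers only COL1A1 passed the filter, at 7.07 to 7.43, and the erythroid gene HBB lay at 7.15 to 7.69. Known glucocorticoid targets marked every group given dexamethasone: FKBP5 lay at 9.22 to 9.45 without it and at 13.19 to 13.84 with it. Of the 4 tested genes on the glucocorticoid list, FKBP5, TSC22D3 and DDIT4 rose against untreated cells in each such group, and NR3C1 passed in none. TSC22D3 and DDIT4 also rose with salmeterol alone. TSC22D3 read 6.02 and 5.92 in untreated cells and 6.93 and 7.02 with salmeterol. DDIT4 read 4.92 and 5.46 in untreated cells and 7.80 and 7.71 with salmeterol. With dexamethasone they read at least 11.97 and 13.37. The cyclic AMP responsive gene RGS2 stood at 8.01 and 8.01 in untreated cells, 10.27 and 10.20 with salmeterol, and 8.96 and 9.17 with CGS-21680. It also rose with 2 µM dexamethasone, to 8.56 and 8.44. Of the 4 cyclic AMP targets listed, 3 rose with salmeterol (PDE4B, CREM, RGS2), against 1.73% of all tested genes. With CGS-21680 2 rose (PDE4B, RGS2), against 0.656% of all tested genes called in either direction. PDE4D passed with neither agonist alone. A level here is an average over a culture, so fewer cells expressing a gene and less RNA per cell cannot be told apart.

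The promoters of these genes are shown because the agonists act through cyclic AMP, whose transcription factor CREB binds the element TGACGTCA or its shorter core TGACG. The 250 bases before each start were taken from RefSeq (GRCh38.p14), where all 10 genes matched with 12 starts (2 each for MAFF and NR4A1), and each motif was searched on both strands. The core TGACG was present in 8 of the 10 genes, all but NR4A1 and ZFP36, and in 21.2% of all 35116 tabulated promoters. The palindrome TGACGTCA, which contains the core on both strands, was present in JUND and MAFF and in 1.65% of promoters. A gene was counted if any of its starts matched, whereas the shares are of promoters. Of its 2 starts, MAFF had matches before a single start. In the windows below, capitals mark the element and each window is written 5′ to 3′ on the strand of its gene.
FOS, chr14:75278749-75278783, plus strand: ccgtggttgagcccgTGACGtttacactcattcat
FOSB, chr19:45467921-45467955, plus strand: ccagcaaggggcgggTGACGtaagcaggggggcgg
JUN, chr1:58784151-58784185, minus strand: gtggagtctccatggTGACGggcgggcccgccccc
JUNB, chr19:12791334-12791368, plus strand: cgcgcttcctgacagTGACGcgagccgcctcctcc
JUND, chr19:18281800-18281837, minus strand: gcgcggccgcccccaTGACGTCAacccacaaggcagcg
EGR1, chr5:138465398-138465432, plus strand: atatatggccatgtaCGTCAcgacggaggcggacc
IER2, chr19:13150256-13150290, plus strand: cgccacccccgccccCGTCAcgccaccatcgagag
MAFF, chr22:38201925-38201962, plus strand: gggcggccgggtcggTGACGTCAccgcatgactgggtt
ZFP36, the 100 bases before its start, chr19:39406747-39406846, plus strand, with no match: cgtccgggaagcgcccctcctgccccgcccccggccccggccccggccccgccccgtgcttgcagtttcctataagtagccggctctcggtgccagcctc

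EGR1 and JUND each hold a further TGACG core in the same 250 bases. The serum response element (CArG box) was found in EGR1 alone, with 2 matches, and in 1.16% of all promoters. Neither the AP-1 element TGACTCA (4.2% of promoters) nor the glucocorticoid response element (0.327%) was found in any of the 10. A match describes the letters only, and a missing match says only that these letters are not in this window.

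FOS, the classical partner of JUN in AP-1, gave no signal above the lowest value of the deposited table on any array. Its probe set 209189_at stood at that floor, a log2 level of 2.29, on 14 of 14 arrays. EGR1 was the same on 1 of its 3 probe sets (201694_s_at, 14 of 14 arrays at the floor). The other EGR1 probe sets were at the floor on 12 arrays (227404_s_at) and 11 arrays (201693_s_at), and their highest levels were 2.31 and 2.30. FOSB, a FOS relative, lay between 2.35 and 2.62, and 9 of its 14 values were equal. IER2, a nuclear regulator of transcription, lay between 3.01 and 3.57, below the filter, and 9 of its 14 values were equal. Its highest values were those with 2 µM dexamethasone, at 3.57 and 3.34, a difference that was not tested. FOS, FOSB and EGR1 were thus at or near the floor in every group. A difference between groups in these genes was not detectable at this signal, which does not show that there was none.

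JUN, the main DNA-binding partner of FOS, was measured on 4 probe sets, of which 201464_x_at was the brightest. Its log2 levels were 7.53 and 7.52 in untreated cells, 7.27 and 7.04 with salmeterol, 7.39 and 7.48 with CGS-21680, 7.49 and 7.55 with 25 nM dexamethasone, 7.56 and 7.75 with 2 µM dexamethasone, 7.52 and 7.77 with salmeterol and dexamethasone, and 7.69 and 7.52 with CGS-21680 and dexamethasone. The salmeterol pair was the lowest and overlapped no other group. JUN rose with dexamethasone in the presence of salmeterol, by 0.49 ± 0.124 (SE; 1.40-fold, adjusted p = 0.0256). The difference between salmeterol and untreated cells was −0.37 (95% interval −0.65 to −0.09, adjusted p = 0.127) and did not pass. Averaged over its 3 backgrounds (none, salmeterol, CGS-21680), 25 nM dexamethasone raised JUN by 0.22 ± 0.071 (adjusted p = 0.0469), a call lost in 15 of 24 alternatives. The difference was −0.001 without an agonist (95% interval −0.28 to 0.28, adjusted p = 1) and 0.17 beside CGS-21680 (adjusted p = 0.468), so the salmeterol setting supplied most of that average. Both calls were lost with the arrays quantile normalized (0.39, adjusted p = 0.0801, and 0.19, adjusted p = 0.093). They were also lost with the mean of the JUN probe sets (adjusted p = 0.103 and 0.133), and 201465_s_at, 201466_s_at and 213281_at passed no test. Dropping salmeterol replicate 2 (adjusted p = 0.147) or the second array of salmeterol with dexamethasone (adjusted p = 0.16) ended the first call.

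JUNB, a JUN relative often placed against JUN in growth control, had the narrowest spread of the 6. Its log2 level was 7.53 and 7.66 in untreated cells, 7.72 and 7.53 with salmeterol, and 7.24 and 7.59 with CGS-21680. All 8 arrays given dexamethasone read 7.53, and 7 of the 14 arrays held exactly the same value. Whether this probe set could show a change in JUNB was not tested, so its narrow spread is not evidence of a steady level. JUNB passed none of the 18 tests, also at an unadjusted limma p under 0.05, and its difference between 25 nM dexamethasone and untreated cells was −0.06 (95% interval −0.33 to 0.21).

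JUND, the JUN family member that resting cells keep on, was measured at 9.87 to 10.69 on 203752_s_at. The levels were 10.26 and 10.37 in untreated cells, 10.20 and 10.09 with salmeterol, 9.87 and 10.44 with CGS-21680, 10.40 and 10.48 with 25 nM dexamethasone, 10.69 and 10.39 with 2 µM, 10.53 and 10.63 with salmeterol and dexamethasone, and 10.56 and 10.41 with CGS-21680 and dexamethasone. On this probe set every array given dexamethasone lay above both untreated arrays, and both salmeterol arrays lay below them. How many of all genes separate in this way was not counted. No comparison passed over all genes, and 2 would at an unadjusted limma p under 0.05. Averaged over the 3 backgrounds, the difference with 25 nM dexamethasone was 0.30 (95% interval 0.07 to 0.52, adjusted p = 0.054), and without CGS-21680 replicate 2 it was 0.39 (adjusted p = 0.00603). Dexamethasone beside salmeterol gave 0.43 (adjusted p = 0.136). The other JUND probe sets ran from 6.03 to 6.77 (203751_x_at), 5.73 to 6.25 (214326_x_at) and 2.46 to 2.72 (229117_s_at). They did not show the same separation. On 203751_x_at the group mean was highest with salmeterol (6.58) and lowest with 2 µM dexamethasone (6.31), against 6.38 in untreated cells, and 8 of 14 values were equal. On 214326_x_at the mean was 5.84 both in untreated cells and with 25 nM dexamethasone.

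**Figure D1:**
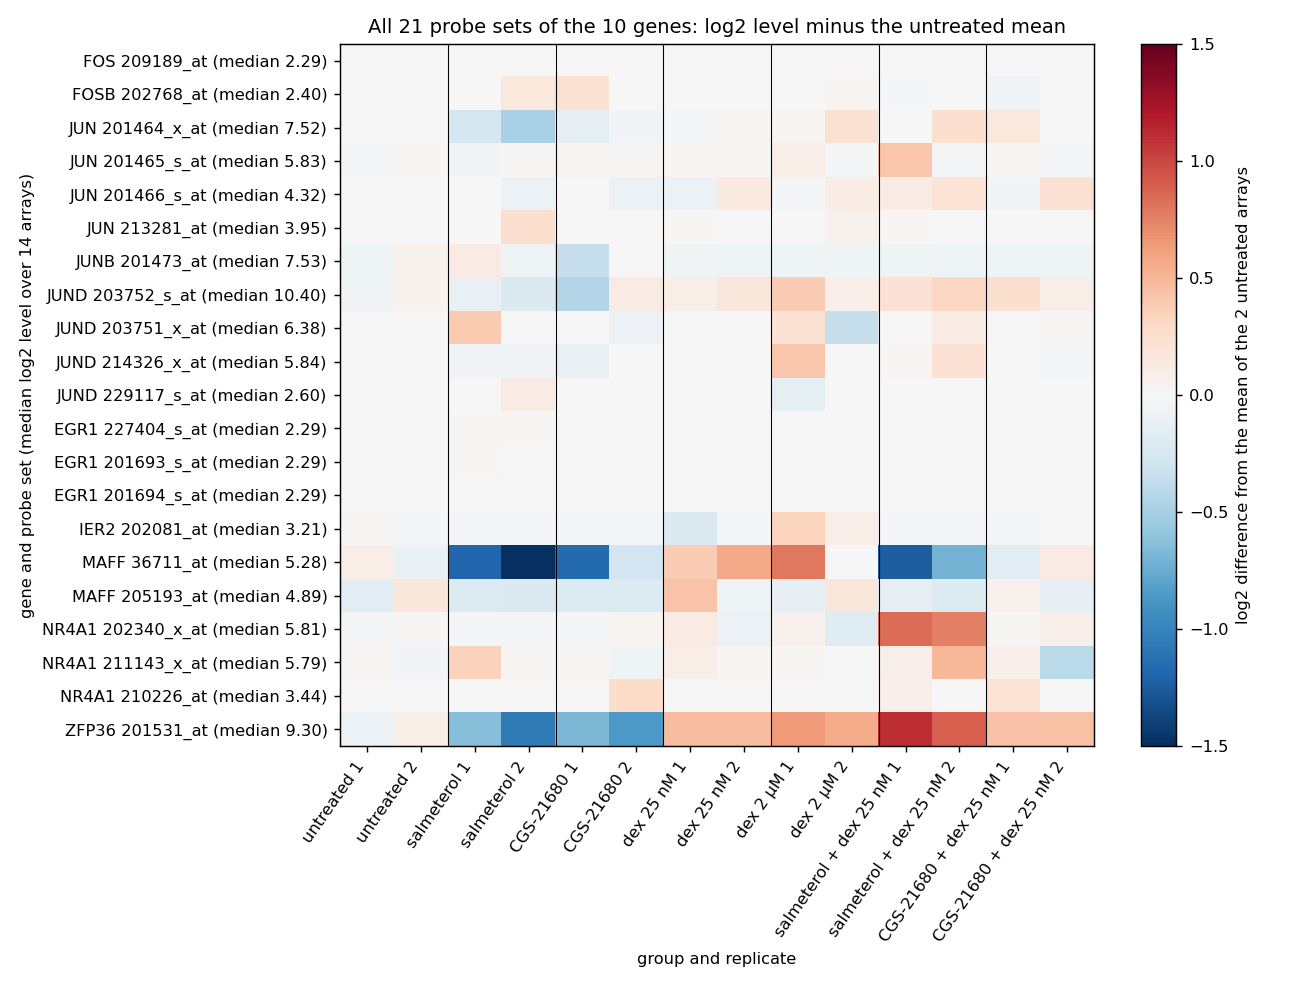
Log2 level of each of the 21 probe sets on each of the 14 arrays, minus the mean of the 2 untreated arrays of that probe set (colour scale from −1.5 to 1.5), with arrays in columns and the median log2 level beside each name. FOS, FOSB and EGR1 are near white throughout, ZFP36 is blue with either agonist and red on all 8 arrays given dexamethasone, MAFF 36711_at is blue on all 4 arrays given salmeterol, and NR4A1 202340_x_at is red on the pair given salmeterol and dexamethasone.

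MAFF encodes a small MAF protein, which binds DNA but has no activation domain and works as a repressor by itself or with other zipper proteins as their partner. It was lower with salmeterol in both settings. On 36711_at the log2 levels were 5.51 and 5.32 in untreated cells, 4.23 and 3.89 with salmeterol, 4.26 and 5.13 with CGS-21680, 5.80 and 5.98 with 25 nM dexamethasone, and 6.21 and 5.42 with 2 µM dexamethasone. They were 4.18 and 4.71 with salmeterol and dexamethasone, and 5.24 and 5.54 with CGS-21680 and dexamethasone. All 4 arrays given salmeterol lay below every array that had neither agonist, and the CGS-21680 pair read 4.26, within the range of those 4 arrays, and 5.13, above it.

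Averaged over both settings, MAFF fell by 1.40 ± 0.234 in log2 with salmeterol (SE; 2.64-fold, adjusted p = 0.00302), a call kept in all 24 alternatives. The size was less stable, at −0.84 with the mean of the MAFF probe sets and −0.92 with log2 of the value plus 16. Beside dexamethasone it fell by 1.44 ± 0.331 (2.72-fold, adjusted p = 0.0181; 0.0651 and 0.103 without either array of 25 nM dexamethasone, and 0.127 without the first array of salmeterol with dexamethasone). Against untreated cells MAFF fell by 1.36 ± 0.331 with salmeterol alone (2.57-fold, adjusted p = 0.0442). That call was the more fragile and was lost in 15 of 24 alternatives, among them without either untreated array (adjusted p = 0.2 and 0.131) or either salmeterol array (0.0923 and 0.194). The interaction, the change with salmeterol beside dexamethasone minus its change alone, was −0.08 (95% interval −1.13 to 0.97, adjusted p = 0.979), so an unequal effect of salmeterol in the 2 settings was not detected and the interval is wide. With salmeterol and dexamethasone against untreated cells the difference was −0.97 (95% interval −1.71 to −0.22, adjusted p = 0.0616) and did not pass. CGS-21680 gave −0.72 (95% interval −1.47 to 0.02, adjusted p = 0.616) and 25 nM dexamethasone 0.47 (adjusted p = 0.546), and neither of these passed.

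The other MAFF probe set, 205193_at, had the same sign with smaller differences. It read 4.84 and 5.19 in untreated cells, 4.81 and 4.80 with salmeterol, 4.81 and 4.82 with CGS-21680, 5.44 and 4.95 with 25 nM dexamethasone, 4.89 and 5.19 with 2 µM, 4.89 and 4.81 with salmeterol and dexamethasone, and 5.09 and 4.89 with CGS-21680 and dexamethasone. Its mean difference with salmeterol was −0.28 (adjusted p = 0.186 over all probe sets tested). The call for MAFF therefore rests on 36711_at.

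NR4A1 was higher in only 1 of the 7 groups, salmeterol with dexamethasone. On 202340_x_at the log2 levels were 6.63 and 6.55 there, against 5.77 and 5.81 in untreated cells, 5.77 and 5.77 with salmeterol, 5.75 and 5.84 with CGS-21680, 5.92 and 5.70 with 25 nM dexamethasone, 5.85 and 5.61 with 2 µM dexamethasone, and 5.81 and 5.86 with CGS-21680 and dexamethasone. The first pair stood clear of the other 12 arrays, which ran from 5.61 to 5.92. The means of the remaining 6 groups ran from 5.73 to 5.84, against 6.59 ± 0.056 (SD, n = 2) with the combination.

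NR4A1 rose with the combination by 0.80 ± 0.108 against untreated cells (SE; 1.74-fold, adjusted p = 0.00064), by 0.78 against dexamethasone alone (1.71-fold, adjusted p = 0.00149) and by 0.82 against salmeterol alone (1.76-fold, adjusted p = 0.000923). Neither compound alone gave a difference that passed: it was −0.02 with salmeterol (95% interval −0.26 to 0.22) and 0.02 with 25 nM dexamethasone (−0.22 to 0.27). On 3 arrays, untreated replicate 1 and both salmeterol arrays, the value was exactly the same. Whether this probe set could show a small change at that level was not tested. CGS-21680 with dexamethasone stood 0.75 below salmeterol with dexamethasone (adjusted p = 0.0109), a call lost without either array of salmeterol with dexamethasone (adjusted p = 0.0922 and 0.0552) or the first array of CGS-21680 with dexamethasone (0.0865). The interaction of salmeterol and dexamethasone was 0.80 ± 0.153 (adjusted p = 0.0382). It failed in 16 of 24 alternatives, with adjusted p up to 0.314, reached with the mean of the NR4A1 probe sets. The mean effects of dexamethasone (0.29, adjusted p = 0.00654) and of salmeterol (0.38, adjusted p = 0.00817) also passed, and both are averages that include the combination pair. The first was lost with the mean of the probe sets (adjusted p = 0.108).

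The 3 NR4A1 probe sets did not agree. On 211143_x_at the combination read 5.85 and 6.26, and the other arrays lay between 5.36 and 6.11. Its difference was 0.29 against untreated cells (adjusted p = 0.33) and 0.23 against dexamethasone alone (adjusted p = 0.528). The last, 210226_at, stayed at 3.42 to 3.71 and was below the filter. The suffix x_at marks probes that can also match other transcripts, and which transcripts 202340_x_at detected was not tested. The related orphan receptors NR4A2 and NR4A3 were at the floor on 12 and 10 of 14 arrays, with highest levels of 2.64 and 2.38.

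ZFP36 was low with an agonist alone and high with the glucocorticoid. Its only probe set, 201531_at, read 8.76 and 8.95 in untreated cells. The levels were 8.21 and 7.79 with salmeterol, 8.18 and 7.99 with CGS-21680, 9.31 and 9.31 with 25 nM dexamethasone, 9.50 and 9.42 with 2 µM, 9.96 and 9.75 with salmeterol and dexamethasone, and 9.30 and 9.29 with CGS-21680 and dexamethasone. Both agonists alone lay below the untreated pair and all 8 dexamethasone arrays above it. The order of the group means was salmeterol with dexamethasone (9.86 ± 0.15, SD), 2 µM dexamethasone (9.46 ± 0.056), 25 nM dexamethasone (9.31), CGS-21680 with dexamethasone (9.30), untreated (8.86 ± 0.13), CGS-21680 (8.09 ± 0.13) and salmeterol (8.002 ± 0.30). Of neighbours in that order only the last 2 overlapped, though 25 nM dexamethasone and CGS-21680 with dexamethasone differed by 0.02 (95% interval for the second minus the first −0.35 to 0.31).

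Dexamethasone at 25 nM raised ZFP36 by 1.17 ± 0.084 averaged over its 3 backgrounds (SE; 2.26-fold, adjusted p = 1.05e-05), a call kept in all 24 alternatives. The rise was 1.85 beside salmeterol (3.62-fold, adjusted p = 4.23e-05) and 1.21 beside CGS-21680 (2.31-fold, adjusted p = 0.000761). Without an agonist it was 0.46 (1.37-fold, 95% interval 0.13 to 0.79) and did not pass over all genes (adjusted p = 0.124). The 2 µM dose raised ZFP36 by 0.60 (1.52-fold, adjusted p = 0.0352). Leaving out either untreated array (adjusted p = 0.191 and 0.0735) or either array of that dose (0.0933 and 0.108) ended this call. The 2 doses differed by 0.14 (95% interval −0.19 to 0.47).

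Salmeterol moved ZFP36 down alone and up beside dexamethasone. With salmeterol alone the level fell by 0.85 ± 0.146 in log2 (1.81-fold, adjusted p = 0.01; 0.0724 without untreated replicate 2). Beside dexamethasone the level rose by 0.54 ± 0.146 (1.46-fold, adjusted p = 0.0354), a call lost without any 1 array of either group (adjusted p = 0.0572 to 0.201). The test of the difference itself, the interaction, gave 1.40 ± 0.206 (adjusted p = 0.00961) and was kept in 23 of 24 alternatives. The exception used only the 4 groups of that comparison (adjusted p = 0.0627). Against untreated cells the combination was 1.00 higher (2.00-fold, adjusted p = 0.000954). CGS-21680 gave −0.77 alone (1.70-fold, 95% interval −1.10 to −0.44), which did not pass (adjusted p = 0.0611), and −0.02 beside dexamethasone. Its interaction was 0.75 (95% interval 0.29 to 1.21, adjusted p = 0.406). The low median level of the salmeterol arrays moves with these falls. With the arrays quantile normalized, salmeterol alone still gave −0.73 for ZFP36 (adjusted p = 0.0263) and −1.28 for MAFF (adjusted p = 0.0311), whereas both calls for JUN were lost.

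**Figure D2:**
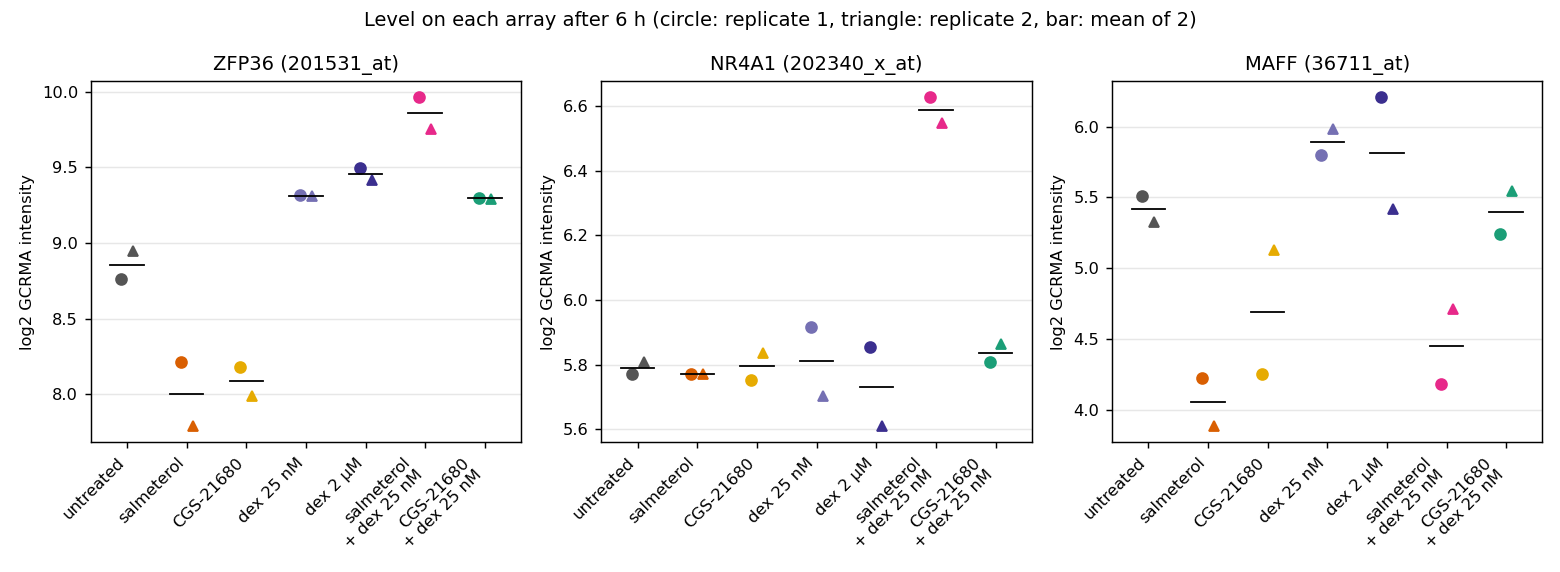
Log2 GCRMA intensity (vertical axis, not starting at 0) of ZFP36, NR4A1 and MAFF on each array in the 7 groups, with circles for replicate 1, triangles for replicate 2 and bars for the mean of 2. ZFP36 runs from 7.79 with salmeterol to 9.96 with salmeterol and dexamethasone, NR4A1 stands at 6.63 and 6.55 in that group only, and the 4 MAFF values on arrays given salmeterol lie below every array that had neither agonist.

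Counts are given by comparison for the 6 tested genes, with the share of all tested genes called in the same direction in parentheses. Salmeterol raised 0 of the 6 (1.73%) and lowered 2, MAFF and ZFP36 (4.24%). The 2 µM dose of dexamethasone raised 1 (4.37%) and lowered 0 (4.21%). Salmeterol with dexamethasone raised 2 (6.29%) and lowered 1 (8.13%) against dexamethasone. Against untreated cells it raised 2 (10.9%) and lowered 0 (13.7%), and against salmeterol it raised 3 (9.74%) and lowered 0 (6.52%). CGS-21680 with dexamethasone raised 1, ZFP36, against CGS-21680 (6.01%) and lowered 0 (7.74%). Against salmeterol with dexamethasone it raised 0 (0.527%) and lowered 1, NR4A1 (0.677%).

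The interaction of salmeterol and dexamethasone was called above 0 in 2 of the 6 tested, NR4A1 and ZFP36 (1.19%), and below 0 in 0 (0.419%). The mean effect of 25 nM dexamethasone raised 3 (15.1%) and lowered 0 (14%), and that of salmeterol raised 1 (6.87%) and lowered 1 (12.7%). None of the 10 was called in the other comparisons. Their shares of genes called in either direction were 0.656% for CGS-21680 and 4.66% for 25 nM dexamethasone against untreated cells, and 3.4% and 15.8% for CGS-21680 with dexamethasone against dexamethasone and untreated cells. The shares were 0% between the 2 doses, 0.495% between the agonists alone, 0.151% for the interaction of CGS-21680 and 4.06% for its mean effect. At an unadjusted limma p under 0.05, ZFP36 alone would pass with CGS-21680, with 25 nM dexamethasone, with CGS-21680 and dexamethasone against untreated cells and in the interaction of CGS-21680. JUN alone would pass between the agonists, and MAFF and ZFP36 in the mean effect of CGS-21680. Between the doses (328 of all genes there) or with CGS-21680 beside dexamethasone, 0 of the 6 tested would pass. Comparisons share groups, and 6 tested genes are too few to set a share against the background.

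**Figure D3:**
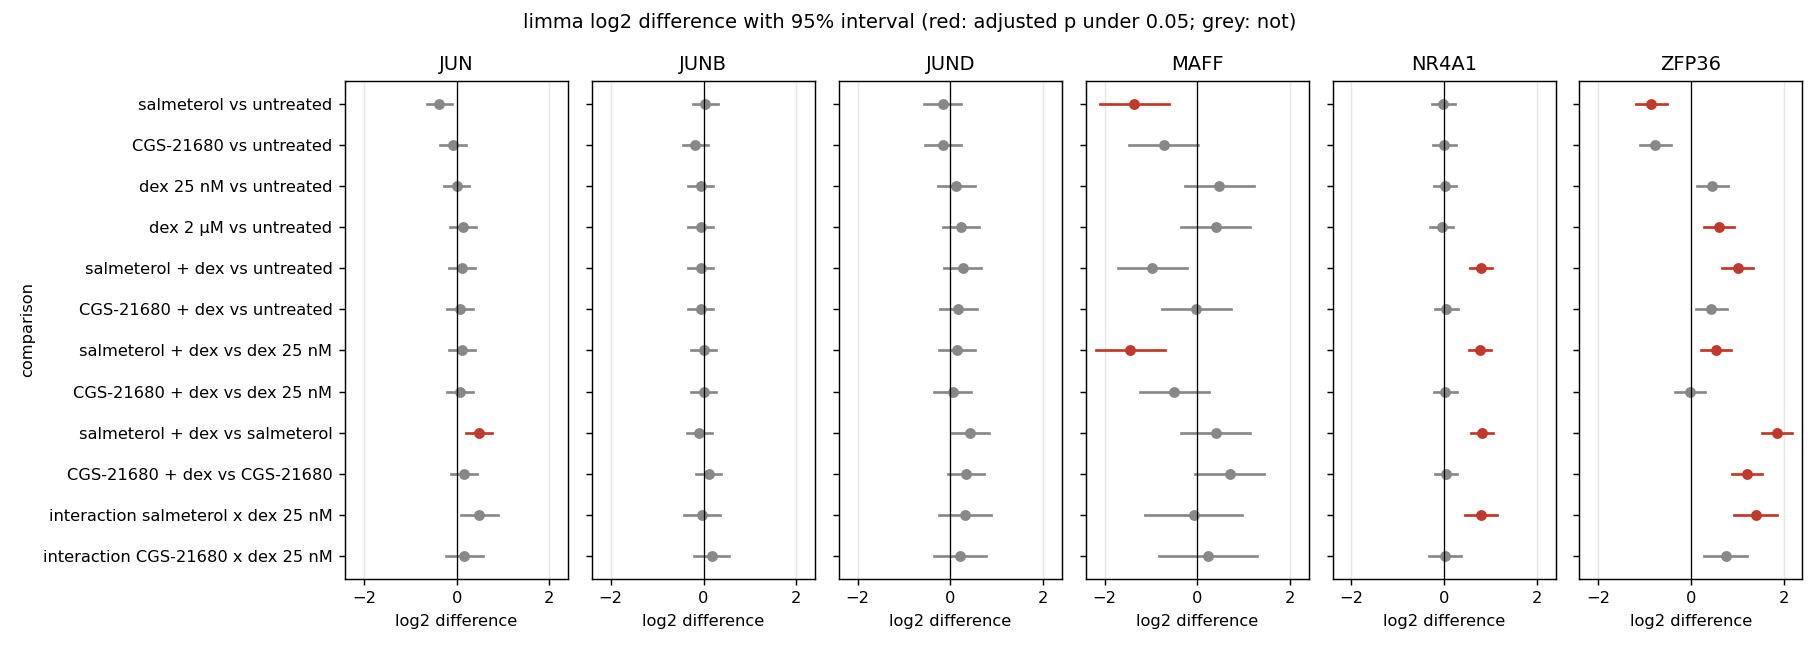
Log2 difference (horizontal axis) with its 95% interval from limma for the 6 tested genes in 12 of the 18 comparisons, in red where the adjusted p was under 0.05 and in grey otherwise. JUNB and JUND are grey throughout, and ZFP36 is red to the left of 0 with salmeterol and to the right of 0 in every red comparison that includes dexamethasone.

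The genes whose log2 levels ran most like those of a called gene over the 14 arrays were found by Pearson's r among the 9300 others, as a description, since the arrays share 7 treatments. For ZFP36 they were PPP1R18 (r = 0.944), TNFAIP3 (0.943) and IFNLR1 (0.936). TNFAIP3, which encodes the A20 inhibitor of NF-kappaB signalling, had group means of 11.05 in untreated cells, 9.84 with salmeterol, 10.40 with CGS-21680, 11.48 with 25 nM dexamethasone and 11.81 with salmeterol and dexamethasone. For NR4A1 they were WFDC21P (0.967), CHST2 (0.965) and TRABD2A (0.959). Each had its highest mean in the same pair as NR4A1, which follows from how they were picked and supports nothing further. CHST2, a sulfotransferase gene, had a mean of 8.70 in that pair and 4.03 to 4.86 in the other groups. WFDC21P had means of 2.29 to 2.67 in the other groups, below the filter level of 4, and passed the filter only through that pair. TRABD2A had means of 3.86 to 3.95 in the other groups. For MAFF they were TLE5 (0.956), MINCR (0.939) and TLNRD1 (0.938), and for JUN TENT2 (0.906), EPC1 (0.896) and TMEM128 (0.875).

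Of 17 listed partners of AP-1 and small MAF proteins, 15 were on the array and 11 were tested. Salmeterol with dexamethasone against dexamethasone raised 3 (FOSL2, BACH1, NFE2L1; 6.29% of all tested genes) and lowered 2 (MAF, BACH2; 8.13%), with a median difference of 0.24 against 0.00 over all genes. FOSL2, a FOS relative, was read at 5.15 and 5.40 with the combination. It lay at 4.12 and 3.70 with CGS-21680 and dexamethasone, and at 3.28 to 3.50 in the other 5 groups, below the filter level of 4. FOSL2 thus passed the filter only through the groups where it was high, so its call supports nothing further and no size is given. BACH2, a repressor that pairs with small MAF proteins, fell by 0.81 with salmeterol (adjusted p = 0.01) and rose with 25 nM dexamethasone by 0.89 (adjusted p = 0.00644). Beside dexamethasone it fell by 1.69 with salmeterol (adjusted p = 6.9e-05), a direction it shares with MAFF. MAF fell by 1.70 in the same comparison (adjusted p = 0.00127). FOSL1, JDP2 and BATF3 were below the filter, as FOS and FOSB were.

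Of 17 other immediate early transcription factors, 16 were on the array and 11 were tested. EGR3 was at the floor on 14 of 14 arrays, and KLF4 and BHLHE40 reached at most 3.29 and 3.24. With 25 nM dexamethasone KLF2 and IER5 rose and 0 fell (4.66% of all tested genes were called in either direction), with a list median of −0.01 against 0.00 over all genes. KLF2, a factor that keeps lymphocytes quiescent, read 8.23 and 8.75 in untreated cells, 6.57 and 7.24 with salmeterol, and 10.80 and 11.12 with 25 nM dexamethasone. It fell by 1.59 ± 0.269 with salmeterol (adjusted p = 0.00982) and rose with dexamethasone by 2.47 (adjusted p = 0.00113). Beside dexamethasone KLF2 fell by 1.21 with salmeterol (adjusted p = 0.0158), where ZFP36 rose. IER5, a relative of IER2, rose with 25 nM dexamethasone by 0.48 (adjusted p = 0.0341) and with 2 µM by 0.86 (adjusted p = 0.00128). MYC, a growth-promoting transcription factor, fell by 2.97 ± 0.123 with salmeterol and dexamethasone against untreated cells (adjusted p = 4.67e-07), and its interaction was −2.16 (adjusted p = 0.000537).

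Of 26 other immediate early regulators, 24 were on the array and 16 were tested. Salmeterol lowered 5 of them (DUSP6, BTG1, SPRED1, TNFAIP3, MCL1; 4.24% of all tested genes) and raised 0 (1.73%), with a median of −0.22 against −0.06 over all genes. With 25 nM dexamethasone 4 rose (BTG1, RHOB, NFKBIA, TNFAIP3) and 2 fell (BTG3, SGK1), with a median of 0.17 against 0.00 and 4.66% of all tested genes called in either direction. TNFAIP3 fell by 1.20 ± 0.101 with salmeterol (adjusted p = 0.000212) and fell by 0.65 with CGS-21680 (adjusted p = 0.0262), and rose with 25 nM dexamethasone by 0.43 (adjusted p = 0.0456). Its interaction of salmeterol and dexamethasone was 1.54 ± 0.143 (adjusted p = 0.000992), beside 1.40 for ZFP36. TNFAIP3 was also among the genes most correlated with ZFP36 over the same arrays, so this likeness is not a separate result. NFKBIA, the inhibitor of NF-kappaB, rose with 25 nM dexamethasone by 1.21 (adjusted p = 0.000768), and salmeterol added −0.01 to that (adjusted p = 1). SGK1, a kinase gene, fell by 0.60 with 25 nM dexamethasone alone (adjusted p = 0.0298) and rose with salmeterol beside it by 2.75 (adjusted p = 2.73e-06). ARC was at the floor on all 14 arrays and CCN2 on 13.

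The relatives of ZFP36 and the decay machinery comprised 14 genes, all tested. With 25 nM dexamethasone ZFP36L2 alone rose and 0 fell (4.66% of all tested genes in either direction), with a list median of 0.00 against 0.00 over all genes. ZFP36L2, which encodes another binder of AU-rich elements, read 10.82 and 10.74 in untreated cells, 11.04 and 11.00 with salmeterol, 12.81 and 12.77 with 25 nM dexamethasone, and 13.22 and 13.27 with salmeterol and dexamethasone. Its rise with 25 nM dexamethasone was 2.01 ± 0.108 (adjusted p = 1.52e-05). The difference with salmeterol alone was 0.24 (adjusted p = 0.249), where ZFP36 fell. Averaged over backgrounds, dexamethasone raised 3 of the 14 (ZFP36L2, CNOT8, SKIC3; 15.1% of all tested genes) and lowered 2 (ELAVL1, KHSRP; 14%), and 14 genes are too few to set apart from those shares.

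Of 26 listed regulators upstream of immediate early genes, 23 were on the array and all 23 were tested. Salmeterol raised 2 (CREM, MAP2K1; 1.73% of all tested genes) and lowered 1 (ELK4; 4.24%), with a median of −0.14 against −0.06 over all genes. CREM, a repressor and activator at cyclic AMP elements, read 4.09 and 4.84 in untreated cells and 7.31 and 7.65 with salmeterol, a rise of 3.01 ± 0.356 (adjusted p = 0.00166). MAP2K1, the kinase MEK1, read 8.89 and 8.81 in untreated cells and 11.24 and 11.28 with salmeterol and dexamethasone. It rose by 1.82 in that combination against dexamethasone (adjusted p = 5.53e-06), with an interaction of 1.40 (adjusted p = 0.00119). CRTC2, a coactivator of CREB, rose there by 0.70 (adjusted p = 0.0141) and had a difference of −0.04 with salmeterol alone (adjusted p = 0.94). The heat shock list, kept as a check on handling, had 3 tested genes. Of these HSPH1 fell by 1.05 with 25 nM dexamethasone (adjusted p = 0.00525) and 0 rose, where 4.66% of all tested genes were called in either direction. The part of handling in the levels of the 10 genes was not tested.

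**Figure D4:**
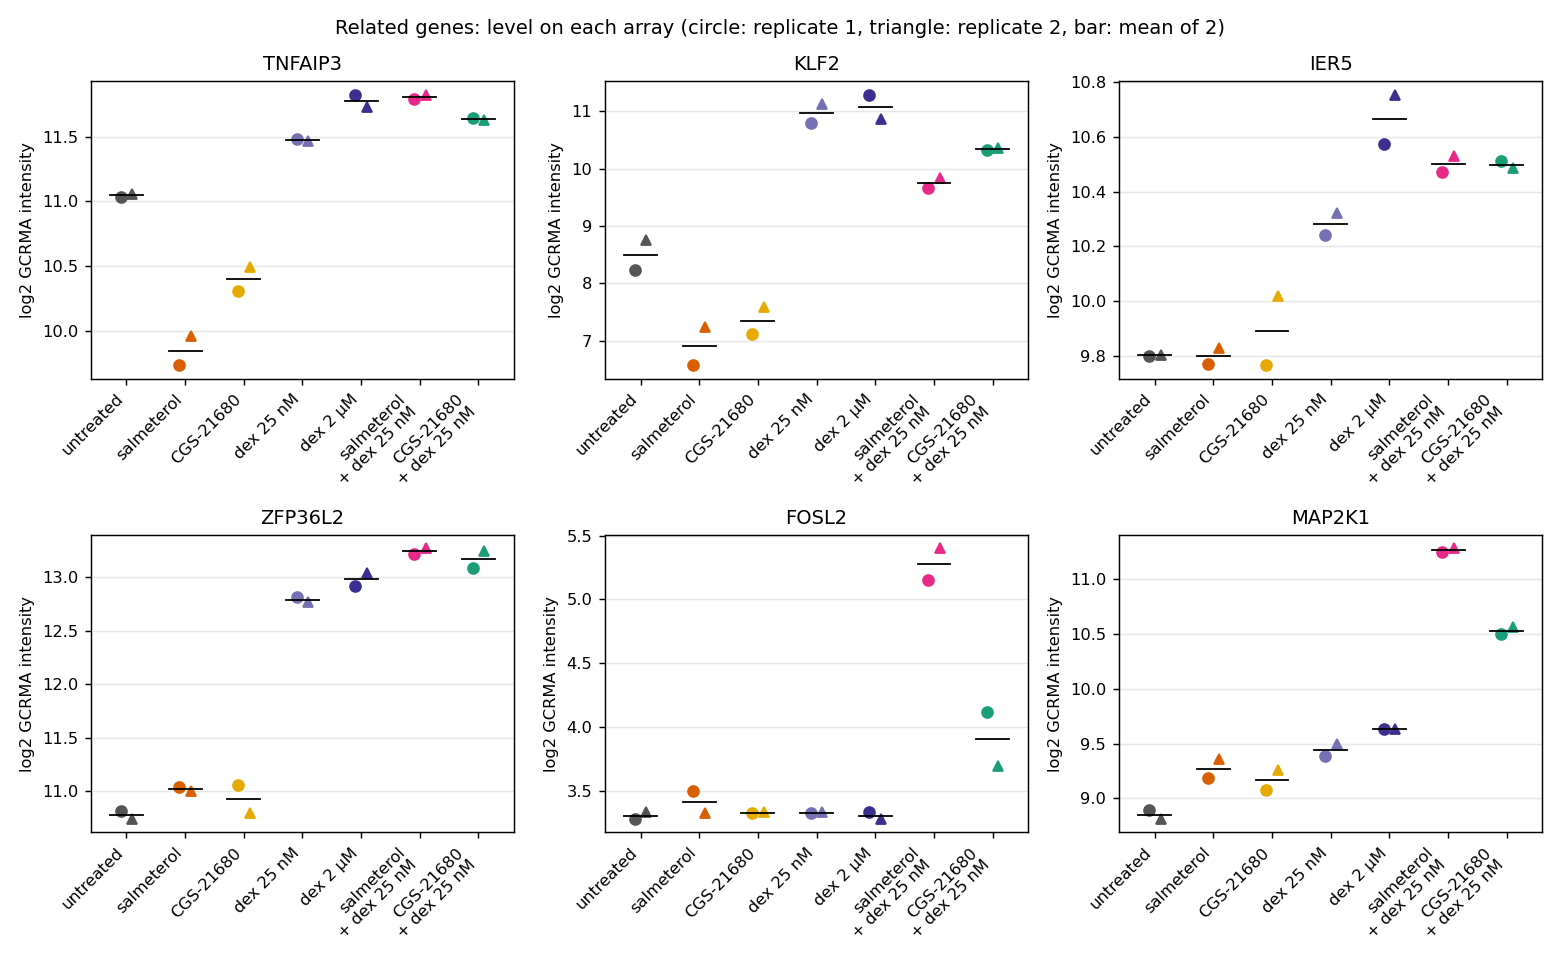
Log2 GCRMA intensity (vertical axes, each with its own range) of 6 related genes on each array, with circles for replicate 1, triangles for replicate 2 and bars for the mean of 2. TNFAIP3 and KLF2 are lowest with salmeterol, IER5 and ZFP36L2 are higher on all arrays given dexamethasone than without it, and FOSL2 and MAP2K1 are highest with salmeterol and dexamethasone.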

How the data were processed

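The deposited table holds 1 intensity per probe set and array from Affymetrix 3' arrays. GCRMA, a background correction with normalization between arrays, is named in the submitters' processing notes, and its version is not given in the sources used here. That the deposited intensity values are linear and normalized was inferred from them: they share a floor of 4.88. Here log2 was taken with no offset, and names came from the platform annotation (41097 with 1 symbol, 1801 with several, 11777 not listed). With limma 3.58.1 (R 4.3.3), 1 model with a mean for each of the 7 groups took in the 14 arrays, with 7 residual and 2.3 prior degrees of freedom. P-values were adjusted by Benjamini-Hochberg over 9301 genes, and limma was tested on simulated data. The mean effect of a treatment averages its differences over the settings in which it was given. For 2 arrays against 2, the smallest p an exact permutation test allows is 0.333. Errors are SE of the model, or SD of 2 arrays where stated. The labels do not say how replicate cultures were separated, so p-values reflect only how far these samples spread, in part perhaps technically. Precision is limited by the number of arrays.

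The 10 genes and all lists were chosen with earlier results of these data known. Named from each list were up to 3 genes with the smallest adjusted p among those called in the single treatments or in an agonist beside dexamethasone, and for each called gene the 3 most correlated genes. Other listed genes are named where a count is 5 or fewer or to give those below the filter, and were chosen after their values were seen. Alternatives were another filter, probe set rule, offset, normalization, variance model, sample set and block, each array left out and, added after the data were seen, levels below 4 raised to 4. The replicate numbers were checked for pairing: over 21 pairs of groups the correlation of deviations ran from −0.173 to 0.255 (median 0.105) and was over 0.1 in 12, not in all 21, so the numbers were not used to pair samples.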

Additional observations from a re-analysis of the deposited data

Results flagged for a closer look

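By the limma interaction term, the effect of salmeterol differed without and with 25 nM dexamethasone in 2 of the 6 tested genes. Over all tested genes the interaction was called above 0 in 1.19% and below 0 in 0.419%. In ZFP36 salmeterol gave −0.85 alone and 0.54 beside dexamethasone, and the interaction was 1.40 ± 0.206 (SE, adjusted p = 0.00961). In NR4A1 the changes were −0.02 and 0.78, and the interaction was 0.80 ± 0.153 (adjusted p = 0.0382). The NR4A1 call was kept in only 8 of 24 alternatives, and the ZFP36 call in 23 of 24. The NR4A1 value comes from 1 of its 2 probe sets past the filter, and the other gave 0.05 (adjusted p = 0.981 over all probe sets tested).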

How the results depend on the processing

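Across 24 alternatives no called difference of the 10 genes reversed. ZFP36 kept its calls in all 24 for salmeterol with dexamethasone against untreated cells and against salmeterol, and for the mean effect of dexamethasone. NR4A1 did so for the same 2 contrasts and the mean effect of salmeterol, and MAFF for the mean effect of salmeterol. The number of the 10 genes called moved as follows, and unless stated the cause was not tested. Salmeterol against untreated gave 1 with every probe set tested, with log2 of the value plus 16 and with the replicate number as a block, and 0 with only the groups compared. Fitting only the groups compared, which leaves fewer samples, also gave 0 for 2 µM dexamethasone against untreated, for salmeterol with dexamethasone against dexamethasone, for CGS-21680 with dexamethasone against CGS-21680 and against salmeterol with dexamethasone, and for the interaction of salmeterol. Without a filter the counts were 0 for 2 µM dexamethasone, 1 for salmeterol with dexamethasone against dexamethasone, and 1 (EGR1, whose levels there were at the floor or within 0.03 of it) for CGS-21680 against salmeterol. With a variance trend and robust moderation CGS-21680 against untreated gave 1. The interaction of salmeterol gave 1 with the mean of the probe sets, every probe set, quantile normalization and the variance trend. The replicate block changed no other count by over 1.5 times, and the numbers were not taken to pair the samples.

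With 1 array left out the counts ran from 0 to 2 for salmeterol, 0 to 1 for CGS-21680, 0 to 1 for 2 µM dexamethasone, 1 to 3 and 2 to 3 for salmeterol with dexamethasone against dexamethasone and untreated cells, 0 to 1 for CGS-21680 with dexamethasone against untreated cells, 2 to 4 for salmeterol with dexamethasone against salmeterol, 1 to 2 for CGS-21680 with dexamethasone against CGS-21680, 0 to 1 between the combinations, 1 to 2 for the interaction of salmeterol, 2 to 4 for the mean effect of dexamethasone and 0 to 1 for that of CGS-21680. Where a group was left with 1 array, that array was taken to vary like the other groups. Over all genes the counts moved more under the other settings. For salmeterol 555 genes were called, and 5 to 745 under other settings. In the same order the counts were 61 and 0 to 76 for CGS-21680, and 433 and 12 to 551 for 25 nM dexamethasone. They were 798 and 2 to 1080 for 2 µM dexamethasone, and 1341 and 549 to 1828 for salmeterol with dexamethasone against dexamethasone. For the interaction of salmeterol they were 150 and 129 to 170. For salmeterol with dexamethasone the counts were 2288 and 1560 to 3293 against untreated cells, and 1512 and 752 to 2171 against salmeterol. For CGS-21680 with dexamethasone they were 316 and 0 to 356 against dexamethasone, 1468 and 240 to 1965 against untreated cells, 1279 and 28 to 1692 against CGS-21680, and 112 and 0 to 137 against the other combination. They were 0 and 0 to 14 between doses, 46 and 0 to 85 between agonists, and 14 and 0 to 24 for the interaction of CGS-21680. For the mean effects they were 378 and 185 to 466 (CGS-21680), 2700 and 2107 to 3852 (25 nM dexamethasone), and 1818 and 1297 to 2536 (salmeterol). Signal near the floor limits FOS, FOSB, EGR1 and IER2.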
